A study of Homo sapiens with 36 samples.

Results

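LNCaP cells, an established line of human prostate cancer cells that respond to androgens, were exposed to AU2-94 at 2 µM or to vehicle for 24 h, and their RNA was sequenced. AU2-94 is a selective inhibitor of the kinase CDK4. The comparison rests on 6 of the 36 libraries of the series, chosen by their labels: 3 biological replicates treated with AU2-94 2 µM and 3 with vehicle, described here across all genes. The labels list a dose of 2 µM for vehicle as well. Cells of both groups were plated 24 h before treatment, and nothing else was added to one group and not to the other according to the labels. The same cell line received AU2-94 1 µM, atirmociclib 2 µM (also a selective CDK4 inhibitor) or ribociclib 2 µM (an inhibitor of CDK4 and CDK6) for the same 24 h, and these groups of 3 libraries served for direct comparisons with AU2-94 2 µM. All of this is 1 cell line in culture, with no other line and no non-malignant cells beside it.

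CDK4 partners with D-type cyclins in the G1 phase of the cell cycle and phosphorylates RB1, the retinoblastoma protein. Unphosphorylated RB1 holds E2F transcription factors in check, and the related pocket proteins p107 and p130 bind the MuvB complex, which keeps mitotic genes low until B-MYB and FOXM1 take over. Genes of DNA replication carry E2F sites in their promoters, whereas genes of G2 and mitosis carry a cell cycle homology region, a short element that MuvB binds. In prostate cancer cells androgens drive a separate programme of secretory and metabolic genes, among them KLK3, which encodes prostate-specific antigen.

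The 6 libraries held 20675156 to 21391416 normalised counts in total, which are sums of values that the authors had already normalised and so do not show the original read depth. Each listed 20151 to 21405 genes above 0, and 6.34% to 6.89% of the total came from mitochondrially encoded genes. Replicates of a group at 24 h correlated with r = 0.9803 to 0.9853 over genes on the log2 scale, and no library was identical to another. All 13 luminal markers of the prostate were listed well above the floor of 3 normalised counts in both groups, with a sum of 115449 to 121101 with vehicle and of 156071 to 167534 under AU2-94. Of 12 immune markers 10 were in the table, and their sum was 63.9 to 155.3 with vehicle and 49.7 to 74.1 under AU2-94, with 8 at or under 3 in each group. Of 8 endothelial markers 5 were at or under 3 in each group.

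Of 16137 genes with enough signal to be tested, 336 were called higher under AU2-94 2 µM than with vehicle (2.08%) and 475 were called lower (2.94%), where a gene was called if its adjusted p did not exceed 0.05 and its log2 fold change was 1 or more in either direction. By the adjusted p alone, 2579 genes rose (16.0%) and 2408 fell (14.9%). The median log2 fold change over all tested genes was 0.005, so changes are read against a centre close to 0. Genes called lower had a median of 315 normalised counts over the 6 libraries, beside 412 for all tested genes. Genes called higher had a median of 32.8, and 196 of the 336 averaged under 50. The standard error of a fold change fell with the level, from a median of 0.44 on the log2 scale for genes under 50 to 0.05 for genes of at least 5000, so small changes could be told from the spread between libraries only in abundant genes. At 18 of the genes called higher every vehicle library was at or under the floor of 3 normalised counts, and at 8 of those called lower every AU2-94 library was. Transcripts annotated as long non-coding RNAs made up 23.5% of the genes called higher, 15.8% of those called lower and 20.1% of all tested. The 2 groups did not overlap in 42.3% of all tested genes, 95.5% of those called higher and 98.5% of those called lower. A lack of overlap, given for some genes below, therefore adds little to a call.

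**Figure D1:**
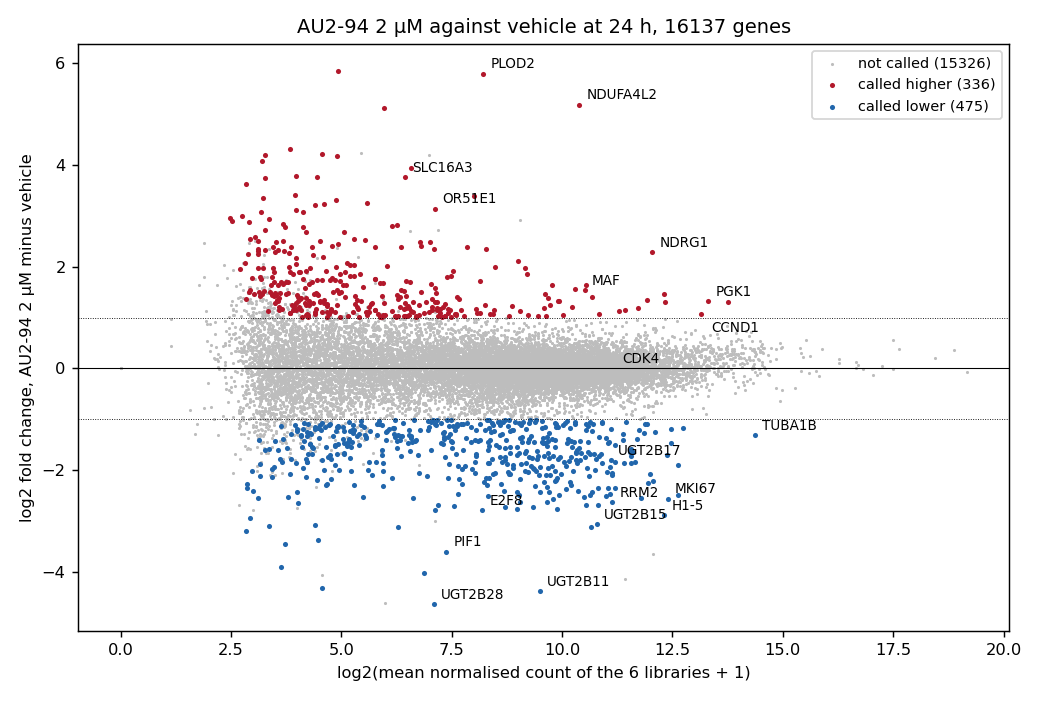
Log2 fold change of AU2-94 2 µM over vehicle at 24 h (vertical axis) against the log2 of the mean normalised count of the 6 libraries plus 1 (horizontal axis), 1 point per gene, with 336 genes called higher in red, 475 called lower in blue and the remaining genes in grey. Dotted lines mark a log2 fold change of 1 in either direction, and most red points lie at low levels while the blue points reach into the abundant genes.

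The transcript of the targeted kinase itself did not pass the test. CDK4 (chr12:57747727-57756013 on GRCh38) stood at 2191, 2415 and 2449 normalised counts in the 3 AU2-94 libraries and at 2267, 2328 and 2409.7 in the 3 vehicle libraries, and these values overlapped. The log2 fold change was 0.01 ± 0.06 (SE) with a 95% interval of -0.11 to 0.13 and an adjusted p of 0.927, and its sign turned with the scaling (-0.03 with equal totals). An inhibitor acts on the kinase protein, so this value is no check of target engagement. The strand setting of the counting is not given in the sources used here, and 44.2% of the CDK4 exon bases overlap TSPAN31 on the opposite strand. CDK6, the close relative of CDK4, was much scarcer, at 44.1, 81.3 and 30.5 against 185, 31 and 122, values too scattered for a direction (log2 -0.88 ± 0.68, adjusted p 0.358). Among the D-type cyclins that activate both kinases, CCND1 rose from 7439.9, 7547 and 7791 to 11266, 11900.3 and 11419.7 (log2 0.60 ± 0.04, adjusted p 5.17e-09), while CCND3 fell from 1066, 1056 and 1085 to 692, 671 and 681 (log2 -0.65 ± 0.06, adjusted p 2.95e-07).

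The substrate RB1 was not called, at 950.4, 1018 and 913 under AU2-94 and 1078, 1119 and 1025 with vehicle (log2 -0.16 ± 0.08, adjusted p 0.144). Its relative RBL2, which encodes p130, rose to 3394, 3197 and 3244 from 2249, 2332 and 2272, with no overlap between the groups (log2 0.52 ± 0.05, adjusted p 6.88e-08). Of the 13 tested members of the RB and E2F families, 1 rose and 7 fell, 4 of them past the fold threshold, with a median of -0.24 on the log2 scale beside 0.005 over all genes. The activator E2F1 was at 429, 523 and 524 in the AU2-94 libraries and 970.2, 984 and 1069 in the vehicle libraries (log2 -1.04 ± 0.09, adjusted p 3.8e-08). E2F2, another activator, was lower by more, at 99.6, 107 and 134 against 601, 475 and 442 (log2 -2.14 ± 0.18, adjusted p 3.56e-08). E2F8, an atypical member that represses, fell furthest of those named, to 65.9, 61.7 and 95 from 536, 516 and 474 (log2 -2.79 ± 0.29, adjusted p 7.79e-07). TFDP1, the partner that typical E2F proteins need for binding DNA, fell by 0.67 on the log2 scale.

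The factors that switch on the mitotic programme fell with them. MYBL2, which encodes B-MYB, was at 445, 519 and 591 under AU2-94 and at 2789.8, 2767 and 2736 with vehicle, a log2 fold change of -2.42 ± 0.09 (adjusted p 1.5e-12). FOXM1 was at 806, 955 and 959 against 3447, 3589 and 3289 (log2 -1.93 ± 0.08, adjusted p 3.44e-12). Every vehicle library lay above every AU2-94 library for both genes. The core MuvB subunits moved less: LIN9 fell by 0.52 and LIN54 by 0.47 on the log2 scale, the latter short of the threshold without vehicle replicate 2 (adjusted p 0.0514). In all, 6 of the 8 members of this group fell and 0 rose. Among 8 genes for CDK inhibitors or inhibitory phosphatases, 5 fell and 0 rose. CDKN2C, which encodes the CDK4 and CDK6 inhibitor p18, was at 108, 82.7 and 108 against 442, 438 and 370.04 (log2 -2.06 ± 0.21, adjusted p 7.79e-07). CDKN3, a phosphatase of CDK1 and CDK2, fell to 185, 201 and 212 from 769, 738 and 714 (log2 -1.89 ± 0.11). CDKN1A, which encodes p21 and is a target of p53, was only slightly lower, at 2239, 2119.7 and 1791 against 2399.6, 2515 and 2459 (log2 -0.27 ± 0.09, adjusted p 0.0362), and it missed the threshold in 5 of the 6 fits that left out 1 library, that is, all but the one without AU2-94 replicate 1 (adjusted p 0.0501 to 0.194), with log2 -0.17 without AU2-94 replicate 3.

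Genes for entry into S phase and for DNA replication were lower under AU2-94. All 9 tested genes of cyclin E, cyclin A and S phase entry fell, 6 past the fold threshold, with a median of -1.19 on the log2 scale. CCNE2, a cyclin that activates CDK2 at the G1 to S border, was at 125, 99.8 and 179 against 525, 722 and 682 with vehicle (log2 -2.28 ± 0.25, adjusted p 1.22e-06). Other genes on the opposite strand overlap 37.1% of the exon bases of CCNE2. CCNA2, the S and G2 phase cyclin, was at 253, 250.3 and 265 against 1584, 1478 and 1505 (log2 -2.57 ± 0.14, adjusted p 1.47e-10). The gene of that kinase, CDK2, fell to 606, 689 and 782 from 1546, 1383 and 1415 (log2 -1.07 ± 0.10). In a bulk sample, fewer cells in a phase of the cycle and less RNA per cell cannot be told apart, and this holds for every cell cycle gene below.

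Of 31 genes for licensing and firing of replication origins, 27 fell, 15 of them past the fold threshold, and 0 rose, with a median of -0.94. The 6 subunits of the MCM helicase fell by 0.61 (MCM5) to 1.27 (MCM4) on the log2 scale, the ends of the range being named after their values were seen. MCM7 was at 2309.9, 2539 and 2730.1 against 4829.8, 4875 and 4853 (log2 -0.94 ± 0.05) and MCM2 at 1867, 2071 and 2101 against 3419, 3282 and 3428 (log2 -0.75 ± 0.05). CDC6, which loads that helicase, fell to 815, 882 and 1154 from 1485, 1502 and 1633 (log2 -0.71 ± 0.12, adjusted p 0.000221). Larger changes were seen for CLSPN, the claspin adaptor of the replication checkpoint, at 321, 342 and 341 against 1555, 1530.3 and 1498 (log2 -2.19 ± 0.14, adjusted p 8.58e-10). TICRR, an origin firing factor, was at 531, 456 and 665 against 1853, 1835 and 1760.3 (log2 -1.74 ± 0.10). At the replication fork 24 of 32 genes fell and 1 rose, with a median of -0.99. There PCNA, the sliding clamp, was at 1057, 1124 and 1286 against 3248, 3239.99 and 2960.3 (log2 -1.45 ± 0.07, adjusted p 3.05e-11), and the helicase PIF1 was among the genes with the largest falls of all, at 22.6, 22.8 and 28.2 against 270.5, 322 and 329 (log2 -3.59 ± 0.40).

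Enzymes that supply deoxynucleotides were mixed as a group, with 13 of 21 lower and 3 higher (median -0.37), but RRM2, TYMS and TK1, which are tied to S phase, fell past the fold threshold. RRM2, the regulated subunit of ribonucleotide reductase, was at 539.6, 631 and 724 against 3728, 3797 and 4113 (log2 -2.63 ± 0.17, adjusted p 1.24e-09). Its constant partner RRM1 fell less, to 1656, 1452 and 1725 from 3104, 3241 and 3154 (log2 -0.98 ± 0.09). TYMS, thymidylate synthase, was at 426, 371 and 432 against 1965, 1916 and 1884 (log2 -2.23 ± 0.09, adjusted p 1.86e-12), although 47.9% of its exon bases overlap ENOSF1 and TYMSOS on the opposite strand. TK1, thymidine kinase, was at 677, 755 and 803 against 2378, 2309 and 2251 (log2 -1.64 ± 0.07).

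Replication-dependent histones, whose mRNAs end without a poly(A) tail and are made in S phase, formed one of the lists with the largest falls. Of 62 such genes written, 51 were tested, 45 fell and 0 rose, and 41 were past the fold threshold, with a median of -1.98. The libraries were made from total RNA, so the missing tail does not keep these mRNAs out. The linker histone H1-5 (chr6:27866792-27867588) went from 9112, 8968 and 8635 to 996, 1140.2 and 1562 (log2 -2.88 ± 0.12, adjusted p 3.44e-12). H2BC14, a core H2B gene, was at 279, 306 and 424 against 2949, 2712 and 2973 (log2 -3.12 ± 0.17, adjusted p 1.38e-10). For both genes AU2-94 replicate 3 was the highest of the treated libraries but still far under every vehicle library. H2BC21 and the linker histone H1-4 fell less, by 1.18 and 1.17 on the log2 scale. Copies of these genes can be near-identical: every stretch of 100 bases of H3C15 and of H2AC18 also occurs in transcripts of other histone genes, so their values (1641, 1998 and 2080.5 against 10826, 10293 and 10933 for H3C15) may mix several genes, whereas H1-5 and H2BC14 share no such stretch. The 1 tested member with a positive fold change past 1 was H4C12, named after its values were seen, which was listed at 0, 359.7 and 0 with vehicle and did not pass the test (adjusted p 0.139).

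Mitotic genes fell almost as a block. All 24 mitotic cyclins and kinases fell (20 past the fold threshold, median -1.62), as did all 27 kinesins and spindle assembly genes (23 past it, median -1.85). Of 34 kinetochore and spindle checkpoint genes 31 fell and 1 rose, with a median of -1.70. The mitotic kinase CDK1 was at 742, 802 and 969 against 3187, 3091 and 2738 (log2 -1.85 ± 0.09, adjusted p 3.36e-11), and its cyclin CCNB1 at 966, 1128 and 1025 against 2591, 2619.7 and 2657 (log2 -1.34 ± 0.07, adjusted p 7.51e-11). PLK1, polo-like kinase, fell further, to 362, 450.3 and 396 from 2624, 2624 and 2524 (log2 -2.69 ± 0.11, adjusted p 3.75e-12). KIF20A, a kinesin of cell division, was at 233, 234 and 266 against 1641, 1735 and 1584 (log2 -2.75 ± 0.22), and KIF11, which pushes the spindle poles apart, at 304, 276 and 332 against 1392, 1335 and 1154 (log2 -2.09 ± 0.09). CENPF, a kinetochore protein, was at 1407, 1256 and 1439 against 6513, 6378 and 6503 (log2 -2.24 ± 0.13).

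Of 26 genes for condensin, cohesin and chromosome structure 25 fell and 1 rose, with a median of -1.17. MKI67, the Ki-67 proliferation marker, was at 1545, 1436 and 1699 against 9181, 9371 and 8954 (log2 -2.56 ± 0.08, adjusted p 1.35e-13). TOP2A, the topoisomerase of dividing cells, was at 687, 665 and 729.7 against 3577, 3523 and 3512 (log2 -2.35 ± 0.14, adjusted p 5.79e-10). The groups did not overlap for either marker. Regulators of protein destruction in the cycle were less uniform, with 9 of 20 lower and 1 higher. Among them CDC20, the activator of the anaphase-promoting complex, was at 444, 522 and 496 against 1949, 1984 and 1932 (log2 -2.01 ± 0.07). The tubulin gene TUBA1B, in none of these lists and the most abundant gene called lower, went from 30673, 30363 and 29505 to 11323, 12039 and 13230.5 (log2 -1.31 ± 0.05). Of its exon bases 44% overlap TUBA1B-AS1 on the opposite strand, and 13.5% of its stretches of 100 bases also occur in other genes.

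**Figure D2:**
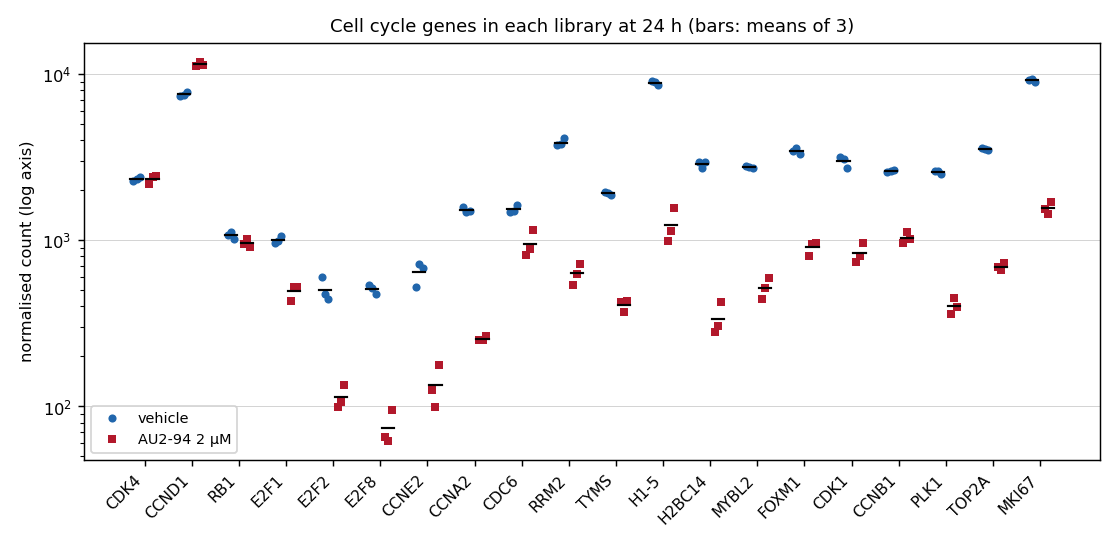
Normalised counts (log axis) of 20 cell cycle genes in each of the 3 vehicle libraries (blue circles) and the 3 AU2-94 2 µM libraries (red squares) at 24 h, with black bars at the means. CDK4 overlaps between the groups and CCND1 is higher under AU2-94, whereas from E2F1 to MKI67 each gene has its treated libraries under its vehicle libraries.

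Genes for repair that works at replication forks were lower as well. Of 30 genes for homologous recombination and the Fanconi anaemia pathway 24 fell and 0 rose (median -0.98), among them BRIP1, a helicase that works with BRCA1, at 209.97, 265 and 237 against 848, 811 and 668 (log2 -1.70 ± 0.15). Of 22 checkpoint kinases and partners 12 fell, with CHEK1, the replication checkpoint kinase, at 261, 232 and 299 against 980.1, 1111 and 983 (log2 -1.96 ± 0.19, adjusted p 2.73e-07). DNA methylation and polycomb enzymes were divided, 11 of 24 lower and 2 higher: EZH2, the polycomb methyltransferase, was at 549, 432 and 532 against 1434, 1299 and 1280.04 (log2 -1.41 ± 0.10) and DNMT1, the maintenance DNA methyltransferase, at 2551, 2238 and 2688 against 5617, 5321 and 4889 (log2 -1.08 ± 0.12). Targets of p53 showed no common direction, with 6 of 29 higher, 10 lower and a median of 0.02 that turned to -0.02 with equal totals. Together, 338 genes of 15 lists on the cell cycle and genome duplication were tested, of which 277 fell and 9 rose, and they made up 190 of the 475 genes called lower (40.0%) and 0 of the 336 called higher. The lists were written with earlier results of these data known, so these counts describe the lists and are not independent evidence.

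The promoters of the genes that fell were read for the elements of this programme. RefSeq promoters, 250 bases before to 50 after the start on GRCh38.p14, were found for 11516 of the 16137 tested genes, for 342 of the 475 called lower and for 231 of the 336 called higher. An E2F site was searched as TTTGGCGC, TTTCCCGC or TTTGGCGG on either strand, a cell cycle homology region as TTTGAA or TTCGAA, and a CCAAT box as CCAAT. E2F sites were in 4.64% of the promoters of tested genes, 11.7% of those called lower and 3.46% of those called higher. They were in 17 of 35 promoters (48.6%) of genes called lower from the lists of G1 to S phase and in 8 of 70 (11.4%) from the lists of mitosis. The cell cycle homology region showed the opposite split, with 1 of 35 (2.86%) and 49 of 70 (70.0%), beside 11.1% of tested genes, 33.6% of those called lower and 16.5% of those called higher. CCAAT boxes were in 33 of 36 promoters (91.7%) of histones called lower and in 70.0% of the mitotic set, beside 37.1% of tested genes. A sterol element was in only 6 of the 11516 promoters, too few for its count of 0 in both called sets to tell anything. These shares were not tested, and a match of letters is not a bound site.

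For 3 genes of G1 to S phase that fell, the stretch before the start is shown with the E2F site in capitals, whichever strand holds it. Positions count from the start, with -1 as the base before it, and each sequence runs 5′ to 3′ along the gene's strand. The 3 were taken by size of fall from named genes with a match in a stretch short enough to print, and named genes without one were passed over. The sites begin at -39 in TYMS, -42 in E2F2 and -108 in TICRR, so 2 of the 3 lie within 50 bases of the start. Genes picked for a match do not show how common or how placed such sites are in others.
TYMS (chr18:657594-657641, plus strand, -59 to -12): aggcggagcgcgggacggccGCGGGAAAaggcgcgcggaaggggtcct
E2F2 (chr1:23531248-23531295, minus strand, -62 to -15): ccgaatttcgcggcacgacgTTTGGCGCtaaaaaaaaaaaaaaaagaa
TICRR (chr15:89575341-89575388, plus strand, -128 to -81): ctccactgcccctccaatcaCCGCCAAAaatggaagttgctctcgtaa

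For 3 mitotic genes that fell, the cell cycle homology region is in capitals. It begins at -29 in PLK1 and -34 in KIF4A, and MKI67 holds it at -47 and again at -29. All 4 matches lie within 50 bases of the start, but these genes too were picked for holding a match.
PLK1 (chr16:23678840-23678885, plus strand, -49 to -4): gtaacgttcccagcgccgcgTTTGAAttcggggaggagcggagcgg
MKI67 (chr10:128126427-128126490, minus strand, -67 to -4): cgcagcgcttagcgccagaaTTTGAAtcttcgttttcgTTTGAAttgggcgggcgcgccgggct
KIF4A (chrX:70290050-70290095, plus strand, -54 to -9): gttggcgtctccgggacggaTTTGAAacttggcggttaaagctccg

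Outside the cell cycle, the largest falls were in UGT2B enzymes, which attach glucuronic acid to androgens and so mark them for removal. All 7 tested members fell and 6 passed the fold threshold, with a median of -3.05 on the log2 scale. UGT2B28 (chr4:69280475-69295050) went from 290.2, 279.7 and 215 to 18.8, 5.43 and 8.25 (log2 -4.62 ± 0.35, adjusted p 1.13e-08). UGT2B11 (chr4:69199951-69214748) was at 76.6, 70 and 51.5 against 1573, 1327 and 1229.7 (log2 -4.37 ± 0.15, adjusted p 7.75e-13). Of the members with a well established part in removing dihydrotestosterone in prostate cells, UGT2B15 (chr4:68646597-68670652) was at 412, 387 and 342 against 3308, 3278 and 2881 (log2 -3.05 ± 0.09, adjusted p 1.26e-13) and UGT2B17 (chr4:68537173-68576413) at 985, 944 and 1014 against 3421, 3533 and 3334 (log2 -1.81 ± 0.07, adjusted p 1.55e-12). These 4 genes lie in one stretch of chromosome 4. For each of them every vehicle library stood above every treated library, a condition of the naming rule for UGT2B28, UGT2B11 and UGT2B15. They are close paralogs: 12.4% of the stretches of 100 bases in UGT2B15 and 9.8% of those in UGT2B17 also occur in another gene, so a small part of their reads could be credited to the wrong member. UGT8, a glycosyltransferase of another branch of the family that makes galactosylceramide, also fell, from 222, 253 and 182 to 10.7, 12.4 and 14.7 (log2 -4.02 ± 0.37).

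Androgen response genes moved the other way, by smaller steps. Of 98 androgen response genes 55 rose, 8 of them past the fold threshold, and 7 fell, with a median of 0.22. KLK3 was at 29519, 32036 and 31369.5 against 23132, 24802 and 22731 (log2 0.40 ± 0.05, adjusted p 1.29e-05), and its neighbour KLK2 at 5182, 5799 and 5240.5 against 3126, 3529.9 and 2859 (log2 0.77 ± 0.09, adjusted p 3.96e-06). TMPRSS2, a surface protease induced by androgens, passed the fold threshold, at 11574, 13167 and 12053 against 5672, 6056 and 5691 (log2 1.08 ± 0.07, adjusted p 8.02e-10). FKBP5, a cochaperone of steroid receptors, moved little (log2 0.17 ± 0.05, adjusted p 0.0099) and missed the threshold without AU2-94 replicate 2 (adjusted p 0.0591) or vehicle replicate 3 (adjusted p 0.0524). MAF, a transcription factor in the same list, rose to 1964, 2318 and 2214 from 738, 795 and 711 (log2 1.53 ± 0.06). The highest log2 fold change of any tested member of the list was 3.40.

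Of 15 prostate lineage factors 7 rose and 2 fell (median 0.18), GATA2 by 0.32 and HOXB13 by 0.25 on the log2 scale. Markers of luminal prostate epithelium rose in 12 of 13 genes and fell in 0 (median 0.38), and surface antigens used as prostate cancer targets rose in 10 of 16 and fell in 1. FOLH1, which encodes prostate-specific membrane antigen, was at 22940.2, 22519.8 and 23521 against 18003, 18067 and 17193 (log2 0.37 ± 0.04), and STEAP1 at 3939, 4199 and 4449 against 3148, 3158 and 2987 (log2 0.44 ± 0.05). These lists share members with the androgen response list, so their counts are not separate evidence. Markers of other cell types were uneven. Fibroblast markers summed to 11612 to 11852 with vehicle and 9135 to 9463 under AU2-94, with FN1, the most abundant of them, lower (log2 -0.37 ± 0.05), while VIM rose from 53.3, 54 and 63.5 to 182, 136 and 174 (log2 1.50 ± 0.31, adjusted p 0.00128) and ACTA2 from 50.9, 59.6 and 80 to 149.7, 156 and 145 (log2 1.25 ± 0.18). COL3A1, a fibrillar collagen, was at 20.2, 21.4 and 20.8 against 12.5, 5.45 and 7.2 (log2 1.29 ± 0.42, adjusted p 0.0251), a call lost in 5 of the 6 fits that left out 1 library, all but the one without vehicle replicate 1 (adjusted p 0.0518 to 0.105). Other genes on the opposite strand overlap 24.6% of the exon bases of VIM and 36% of those of ACTA2. Of 12 fibroblast markers 4 were at 0 with vehicle and 2 under AU2-94. Basal markers summed to 710.05 to 999 with vehicle and to 588 to 791 under AU2-94. Neuroendocrine markers summed to 356 to 436 with vehicle and to 719 to 1498 under AU2-94, and ENO2, neuronal enolase and also a glycolytic enzyme induced by hypoxia, made up most of the sum under AU2-94 at 1264, 822 and 441 against 128, 222 and 196. In that list 12 of the 18 in the table were at or under 3 normalised counts in each group. Among the tested markers 1 rose and 1 fell of 3 basal, 1 rose of 3 neuroendocrine, 3 rose and 2 fell of 6 fibroblast, 1 fell of 3 endothelial, and the 1 immune gene tested did not pass. The part of other cell types in the results was not tested.

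Among the named genes, the largest rises were in genes known as targets of hypoxia-inducible factor, the transcription factor that builds up when oxygen is low. Of 62 hypoxia targets 40 rose, 19 of them past the fold threshold, and 0 fell, with a median of 0.54. Of 29 genes of glycolysis and pyruvate handling 19 rose and 0 fell (median 0.38). The lists overlap, and their 75 distinct tested genes held 21 of the 336 genes called higher (6.25%). PLOD2, a collagen lysyl hydroxylase (chr3:146035139-146163725), was at 636, 631 and 462 against 2.08, 24.1 and 13.3 (log2 5.79 ± 0.73, adjusted p 7.7e-06), with 1 vehicle library at or under the floor of 3. NDUFA4L2, which encodes a mitochondrial protein induced by hypoxia, was at 3059, 2968 and 1779 against 41.1, 113 and 70.3 (log2 5.18 ± 0.69, adjusted p 1.31e-05). The lactate exporter SLC16A3 was at 124, 252 and 111 against 11.8, 8.07 and 11.5 (log2 3.75 ± 0.52, adjusted p 2.34e-05). The vehicle libraries of PLOD2 and NDUFA4L2 differed widely among themselves. For all 3 genes every treated library stood above every vehicle library. The rule that named the genes with the largest changes required this, so it is no further evidence.

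Abundant members rose by less and with a smaller error. NDRG1, a stress-induced gene used as a hypoxia marker, was at 8028, 7141 and 5797 against 1368, 1651 and 1271 (log2 2.28 ± 0.27, adjusted p 3.57e-06). BNIP3, which promotes removal of mitochondria, was at 8033, 7604 and 6841 against 2495, 3007 and 2676 (log2 1.46 ± 0.19), and PGK1, a kinase of glycolysis, at 14527, 15702 and 13378 against 5362, 6494 and 5683 (log2 1.32 ± 0.18, adjusted p 1.83e-05). ALDOC, an aldolase, was at 2236, 2319 and 2158 against 650.5, 853 and 678 (log2 1.63 ± 0.19). Scarcer members were more scattered, with STC1, a secreted glycoprotein, at 125, 159.8 and 96.5 against 6.94, 54.9 and 11.6 (log2 2.82 ± 0.64), and PPFIA4, a liprin, at 520.4, 449.5 and 168 against 25.7, 153 and 66 (log2 2.39 ± 0.60). In PPFIA4 AU2-94 replicate 3 came close to vehicle replicate 2. The median of the hypoxia list per library, as a log2 difference from the vehicle mean, was 0.64, 0.59 and 0.42 in the AU2-94 libraries and -0.03, 0.08 and -0.04 in the vehicle libraries, so AU2-94 replicate 3 was the lowest of the treated libraries and vehicle replicate 2 the highest of the controls. HIF1A, the factor's alpha subunit, named after its values were seen, was at 3199, 2805 and 3193 under AU2-94 and 3214, 2981 and 3055 with vehicle (log2 -0.01, adjusted p 0.923). That subunit is controlled mostly as a protein, which RNA counts do not show. HIF1A-AS3, a non-coding transcript at the HIF1A locus, was at 185, 82.1 and 81.6 against 0.689, 17 and 0 (log2 5.12 ± 0.78), with 5.93% of its exon bases opposite HIF1A exons.

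The core of the hypoxia response element, ACGTG on either strand, was in 10 of the 15 promoters (66.7%) of hypoxia targets called higher that had a RefSeq entry, beside 26.6% of tested genes and 26.0% of all genes called higher. The stretches of 3 such genes, taken by size of rise from named genes with a match, are shown with the core in capitals. PLOD2 holds it at -200 and -146. In PPFIA4 and BNIP3 it forms a palindrome, which is counted once on each strand and begins at -119 and -134.
PLOD2 (chr3:146161306-146161404, minus strand, -220 to -122): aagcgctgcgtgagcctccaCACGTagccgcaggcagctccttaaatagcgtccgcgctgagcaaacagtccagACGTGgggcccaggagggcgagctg
PPFIA4 (chr1:203026352-203026397, plus strand, -139 to -94): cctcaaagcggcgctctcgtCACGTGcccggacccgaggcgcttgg
BNIP3 (chr10:131982032-131982077, minus strand, -154 to -109): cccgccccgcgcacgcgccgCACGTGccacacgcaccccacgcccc

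Genes of protein synthesis and growth were divided. Of 78 genes for cytosolic ribosomal proteins 74 rose and 0 fell, by a median of 0.33 on the log2 scale, and none reached the fold threshold. With quantile normalisation 52 rose and the median was 0.21. RPL13A was at 54015, 55267 and 58273 against 37357, 39045 and 37393 (log2 0.56 ± 0.04, adjusted p 2.76e-09). MYC, a growth regulator that raises ribosome production, was at 7313, 9059 and 7845 against 8352, 7809.8 and 8367, overlapping values (log2 -0.02 ± 0.06, 95% interval -0.16 to 0.11, adjusted p 0.821). Of 42 genes of the MYC network and the nucleolus 18 fell and 6 rose (median -0.14), with NOP56, a factor for ribosomal RNA modification, at 4277, 4340.1 and 4926 against 5986, 6099 and 5918 (log2 -0.41 ± 0.05). Within that network the antagonists MXD4 and MXD3 parted, MXD4 rising to 3348, 3653 and 3383 from 2188, 2187 and 2091 and MXD3 falling to 102, 87.4 and 87.4 from 280.4, 435 and 344 (log2 -1.91 ± 0.22).

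Of 36 genes of the ATF4 response, which supplies amino acids under stress, 20 fell and 5 rose, with a median of -0.23. SLC7A5, a transporter of large amino acids, was at 241, 238 and 211 against 681, 712 and 628 (log2 -1.54 ± 0.09, adjusted p 5.28e-10), and the serine synthesis enzyme PSAT1 at 2704, 2811 and 2779.8 against 4752, 4623 and 4426 (log2 -0.73 ± 0.05). ATF3, a stress-induced factor counted among the immediate early genes, went against this, at 671, 651 and 563 against 408, 446 and 371 (log2 0.62 ± 0.15). Chaperones of the unfolded protein response rose in 16 of 29 genes and fell in 1, by small amounts, such as CALR at 26917, 28834 and 29729.5 against 24183, 24259 and 22995 (log2 0.26 ± 0.04). Nuclear genes of the respiratory chain rose in 21 of 69 and fell in 2 (median 0.10), and the rises were 9 without AU2-94 replicate 3 and 13 without AU2-94 replicate 2, vehicle replicate 1 or vehicle replicate 2. Among 13 mitochondrially encoded mRNAs 2 rose and 2 fell, and with quantile normalisation 6 fell, so no direction is given for this group. MT-CO1, the most abundant mRNA in these libraries among those named, was at 382792, 366285 and 396152 against 326415, 341381 and 327123 (log2 0.20 ± 0.04). The difference was 0 with quantile normalisation, which sets genes of equal rank to equal values in every library. That scaling cannot test a change in a gene that keeps its rank.

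Among signalling lists, a list joined targets of FOXO factors, which become active when growth signals wane, with feedback genes of PI3K signalling. Of its 24 tested genes 16 rose and 2 fell (median 0.46). SESN3, a sestrin, was at 5557, 5173 and 5579 against 3128, 3045 and 3193 (log2 0.80 ± 0.05) and FOXO3 itself at 5757, 5690.1 and 5376 against 4072, 4167 and 4186 (log2 0.44 ± 0.06), while BCL6, a repressor, fell to 967, 948 and 996 from 1509.8, 1531 and 1426. Another sestrin gene, SESN1, was at 2434, 2376 and 2643 against 1249.9, 1166 and 1133 (log2 1.07 ± 0.06). It is in this list and also in that of p53 targets, where it was the 1 gene past the fold threshold. Lysosome and autophagy genes rose in 24 of 60 and fell in 4, with PSAP, which encodes prosaposin, at 9904, 9765 and 9609.7 against 7075, 7625 and 7414 (log2 0.41 ± 0.04). Interferon response and antigen presentation genes rose in 14 of 43 and fell in 3. Among the members past the fold threshold were HLA-B, an antigen presenting protein, at 959, 932 and 907 against 514, 396 and 466 (log2 1.03 ± 0.13), and OAS3, an antiviral enzyme, at 200.4, 192 and 185 against 679, 657 and 605 (log2 -1.74 ± 0.16). In HLA-B 23.9% of the stretches of 100 bases also occur in another gene.

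Immediate early genes rose in 6 of 21 and fell in 1, beside 16.0% and 14.9% of all tested genes, and the 6 became 2 without AU2-94 replicate 1 and 3 without AU2-94 replicate 2 or vehicle replicate 3. FOS was higher and scattered, at 229, 97.3 and 47.9 against 24.1, 7.02 and 15.1 (log2 2.81 ± 0.79, adjusted p 0.011), and its call was lost without AU2-94 replicate 1 (adjusted p 0.0623) or vehicle replicate 2 (adjusted p 0.0553). EGR1 was not called (log2 -0.01 ± 0.30, 95% interval -0.65 to 0.63, adjusted p 0.984). Feedback genes of ERK signalling rose in 3 of 14 and fell in 2, shares near those of all tested genes. BMP and TGF-beta genes rose in 6 of 18 and fell in 1, among them the receptor BMPR1B at 1346, 1354 and 1439 against 628, 502 and 524 (log2 1.33 ± 0.11). In the other lists 1 rose and 4 fell of 12 NF-kB and inflammatory genes, 1 and 3 of 13 WNT feedback genes, 1 and 4 of 12 Notch genes, 5 and 4 of 15 BCL2 family genes, and 5 and 2 of 12 metallothioneins and zinc transporters. Counts this small moved by over 1.5 times in each of these 5 lists when some single libraries were left out. Of the 3 WNT feedback genes that fell, LEF1 and TCF7 missed the threshold without vehicle replicate 1 (adjusted p 0.111 for LEF1 and 0.163 for TCF7), vehicle replicate 2 or AU2-94 replicate 2 or 3, and LEF1 also without AU2-94 replicate 1. WNT5A, a secreted ligand, fell to 61.5, 49.8 and 49.9 from 113, 175 and 157 (log2 -1.43 ± 0.31), and BOK, a BCL2 relative that promotes cell death, rose to 503, 517 and 475 from 258, 297 and 294 (log2 0.82 ± 0.08).

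Lipid genes were mixed. Of 37 genes of cholesterol synthesis and SREBP targets 11 rose and 6 fell (median 0.08). SCD, which desaturates fatty acids, was at 18782, 20992 and 20997 against 14813, 14408 and 11992 (log2 0.56 ± 0.07, adjusted p 9.26e-06), and FDFT1, squalene synthase, at 3721, 3848 and 4142 against 3160.2, 3226 and 3008 (log2 0.32 ± 0.05, adjusted p 8.4e-05). The groups did not overlap for either gene, which was so for 42.3% of all tested genes. Of 24 genes for fatty acid oxidation and ketone bodies 8 rose and 4 fell.

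Several more of the genes with the largest changes are given here, whether or not a list above holds them. SCNN1G, a subunit of the epithelial sodium channel, was at 275, 156 and 108 against 13, 13.8 and 5.32 (log2 3.94 ± 0.80, adjusted p 0.00097), and AKAP12, a scaffold for protein kinase A, at 563, 556 and 292 against 34.1, 59.7 and 36.7 (log2 3.39 ± 0.70). OR51E1, an olfactory receptor known to be made in prostate, was at 247, 249 and 248 against 35.1, 28.5 and 20.3 (log2 3.14 ± 0.23, adjusted p 8.51e-09), and RLN2, the hormone relaxin, at 212, 219 and 219.96 against 40.4, 38.3 and 35.2 (log2 2.48 ± 0.14, adjusted p 3.17e-10). These last genes had treated libraries within a narrow range, unlike SCNN1G, where AU2-94 replicate 1 was the highest. ANGPT2, a vascular growth factor, was at 251, 158 and 149 against 27.4, 43.7 and 30.6 (log2 2.41 ± 0.45). DHRS2, a reductase, fell to 37.9, 18.9 and 53.4 from 226, 244 and 245 (log2 -2.78 ± 0.39). Among abundant genes AIDA was at 19654, 19254 and 20471 against 8226, 8191 and 7711 (log2 1.30 ± 0.04) and KCNN2, a calcium-activated potassium channel, at 7076, 7262 and 7596 against 2991, 3004 and 2932 (log2 1.30 ± 0.04), both with standard errors of 0.04. The median exon length was 4283 bases for genes called higher, 4103 for those called lower and 4815 for all tested genes, and the median GC content 48.5%, 46.8% and 47.9%.

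AU2-94 2 µM was then set against AU2-94 1 µM at the same 24 h. This and the following comparisons with atirmociclib and ribociclib share the AU2-94 2 µM libraries, so a deviation of these libraries enters all 3. Adjusted p-values were taken over all genes within each of the 3. Between the doses 1 gene was called higher at 2 µM (0.00620%) and 0 were called lower (0%). By the adjusted p alone 4 genes were higher (0.0248%) and 62 lower (0.384%), and 1314 had an unadjusted p of at most 0.05. The gene called higher was CCDC144A, named after its values were seen, at 71.3, 76.4 and 57.6 with 2 µM and 23.7, 24.3 and 28.2 with 1 µM (log2 1.39 ± 0.27, adjusted p 0.0287). Without AU2-94 2 µM replicate 3 the counts past the fold threshold were 2 higher and 5 lower.

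Of the 62 genes lower at the higher dose 52 belonged to the 15 lists on the cell cycle and genome duplication, which hold 338 of the 16137 tested genes. Of 51 replication-dependent histones 22 were lower at 2 µM and 0 higher, with a median of -0.50, beside 0.384% of all genes lower. The 22 became 9 without 1 µM replicate 1 or 2 µM replicate 1 and 8 without 1 µM replicate 3. H1-5 was at 996, 1140.2 and 1562 with 2 µM, at 2302, 2087 and 2441 with 1 µM and at 9112, 8968 and 8635 with vehicle, so the step between the doses (-0.91 ± 0.12, adjusted p 0.00123) was smaller than that from vehicle to 1 µM. MYBL2 was at 445, 519 and 591 with 2 µM and 805, 785 and 889 with 1 µM (log2 -0.68 ± 0.09, adjusted p 0.00152), and MKI67 at 1545, 1436 and 1699 and 2179.7, 2296 and 2469 (log2 -0.57 ± 0.08, adjusted p 0.0023). TOP2A and E2F1 were lower at 2 µM by log2 -0.67 ± 0.14 and -0.44 ± 0.09 (adjusted p 0.0475 and 0.0285). E2F1 missed the threshold without 1 µM replicate 1, 2 or 3 and without 2 µM replicate 1. Of 26 genes for condensin, cohesin and chromosome structure 5 were lower at 2 µM. These became 1 without 1 µM replicate 1 or 3 and without 2 µM replicate 1 or 2. For UGT2B15, KLK3 and CCND1 no difference between the doses passed the test, and the log2 difference was -0.04 for UGT2B15 (95% interval -0.24 to 0.15), 0.09 for KLK3 (-0.02 to 0.20) and 0.03 for CCND1 (-0.06 to 0.12). For PLOD2 the interval was wide, -1.03 to 2.05, so a difference of a doubling in either direction lies within it.

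Atirmociclib, also classed as a selective CDK4 inhibitor, differed from AU2-94 at the same 2 µM in more genes. The 2 compounds are not equally selective. In the authors' kinase assays atirmociclib was more potent than AU2-94 on CDK1, CDK2, CDK6, CDK7 and CDK9. Both were potent on CDK4, where atirmociclib also had the slightly lower inhibition constant. AU2-94 had the higher selectivity for CDK4 over CDK6. The part of this in the differences below was not tested. Relative to AU2-94, 6 genes were called higher with atirmociclib (0.0372%) and 148 lower (0.917%), and by the adjusted p alone 827 were higher (5.12%) and 696 lower (4.31%). With quantile normalisation the called genes were 14 higher and 77 lower, so the share of lower genes was 84.6% in place of 96.1%. Of 51 histones 41 were lower and 0 higher (median -0.92), of 31 origin genes 18 were lower, of 24 mitotic cyclins and kinases 13 and of 27 kinesins and spindle genes 14. H1-5 was at 188, 219 and 192 with atirmociclib and 996, 1140.2 and 1562 with AU2-94 (log2 -2.60 ± 0.12, adjusted p 2.91e-10). CLSPN was at 70.3, 55.8 and 53.5 against 321, 342 and 341 (log2 -2.47 ± 0.14, adjusted p 2.6e-09) and CCNE2 at 31.7, 26.8 and 22.8 against 125, 99.8 and 179 (log2 -2.24 ± 0.25, adjusted p 2.07e-05). E2F1, MKI67 and TOP2A were lower by log2 -0.66 ± 0.09, -1.17 ± 0.08 and -1.09 ± 0.14 in turn. The treated libraries of the 2 compounds did not overlap for H1-5, CLSPN and CCNE2.

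Genes higher with atirmociclib than with AU2-94 mostly differed by less than the fold threshold. Of 37 cholesterol synthesis and SREBP genes 17 were higher, of 13 mitochondrially encoded mRNAs 10, of 42 genes of the MYC network 10 and of 36 ATF4 response genes 10, beside 5.12% of all genes. The 17 cholesterol genes became 10 without AU2-94 replicate 1 and 11 without AU2-94 replicate 2, atirmociclib replicate 2 or atirmociclib replicate 3, and the 10 ATF4 genes became 6 without replicate 3 of either compound. OR51E1 was lower with atirmociclib (log2 -1.23 ± 0.23, adjusted p 0.00285). For UGT2B15 and PLOD2 no difference passed the adjusted test, and the intervals given are not adjusted for the number of genes. The log2 difference was 0.21 for UGT2B15 (95% interval 0.01 to 0.40) and -1.35 for PLOD2 (-2.89 to 0.19). Atirmociclib replicate 3 stood apart for PLOD2, which was at 570.1, 427 and 44.7 with atirmociclib and 636, 631 and 462 with AU2-94, and for NDUFA4L2, at 2497, 1869 and 201 with atirmociclib. Without that library the difference for PLOD2 was -0.21 ± 0.56 (adjusted p 0.888). Of 62 hypoxia targets 0 were higher and 1 lower, the latter becoming 11 without atirmociclib replicate 1, 0 without replicate 3 and 2 without AU2-94 replicate 3.

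Ribociclib 2 µM, which inhibits CDK6 as well as CDK4, differed from AU2-94 2 µM past the test in few genes. Relative to AU2-94, 0 genes were called higher (0%) and 2 lower (0.0124%) by limma, and by the adjusted p alone 3 were higher (0.0186%) and 3 lower (0.0186%), while 2032 had an unadjusted p of at most 0.05. CHST15, a sulfotransferase, was at 45.9, 47 and 38.9 with ribociclib and 128, 113 and 150.1 with AU2-94 (log2 -1.54 ± 0.26, adjusted p 0.0387). BDH2, a dehydrogenase, was at 45.9, 35.6 and 42.7 against 98.7, 88.1 and 103 (log2 -1.21 ± 0.20, adjusted p 0.0366). With the replicate number as a block both had an adjusted p of 0.0629, so 0 genes were called lower. The calls were also lost in every fit that left out 1 library for CHST15 (adjusted p 0.0534 to 0.167), and in 5 of the 6 for BDH2, all but the fit without AU2-94 2 µM replicate 3 (adjusted p 0.0766 to 0.122). The differences in cell cycle genes had intervals that bound them: log2 -0.38 for H1-5 (95% interval -0.63 to -0.13, adjusted p 0.187), -0.06 for E2F1 (-0.24 to 0.12), -0.08 for TOP2A (-0.38 to 0.23) and -0.25 for MKI67 (-0.42 to -0.08, adjusted p 0.208). The unadjusted intervals of H1-5 and MKI67 lie below 0, but neither gene passed the adjusted test, and this does not show that the compounds act alike.

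**Figure D3:**
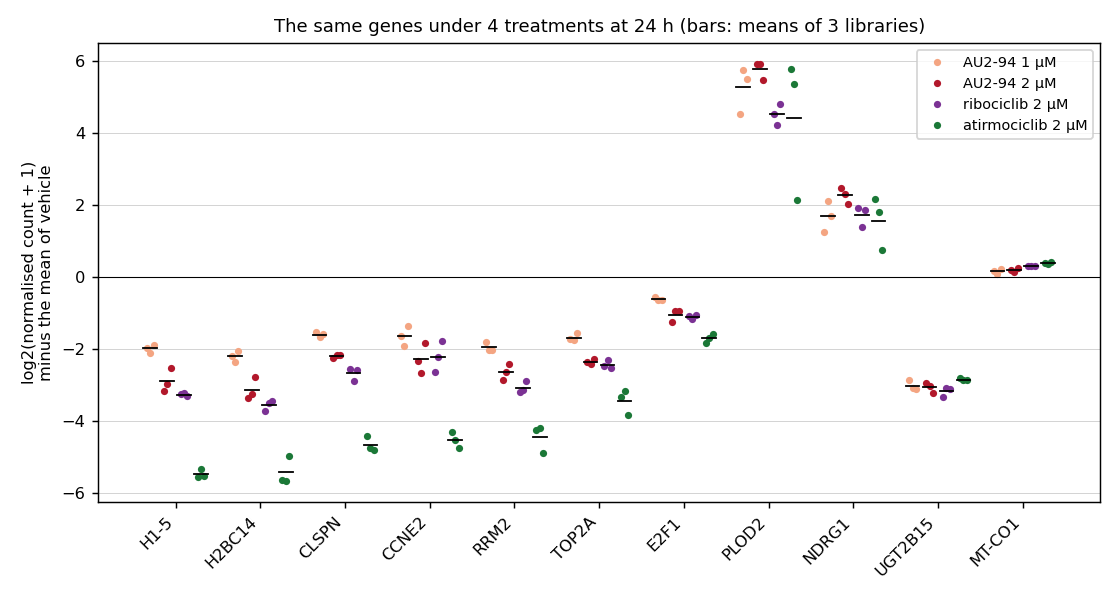
Log2 of the normalised count plus 1, minus the mean of the 3 vehicle libraries at 24 h (vertical axis), for 11 genes in each library of AU2-94 1 µM (orange), AU2-94 2 µM (red), ribociclib 2 µM (purple) and atirmociclib 2 µM (green), with 3 points per group and black bars at the means. Atirmociclib lies lowest for the 7 cell cycle genes from H1-5 to E2F1, UGT2B15 lies near -3 under all 4 treatments, and PLOD2 is the most scattered.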

How the data were processed

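RNA of LNCaP cells was extracted with TRIzol and made into total RNA libraries, sequenced as paired ends on a DNBSEQ G400. The authors ran nf-core/rnaseq with alignment by STAR 2.6.1d to GRCh38 and normalised with DESeq2, per the labels and the methods. The counting tool, annotation release and strand setting are not given in the sources used here. The deposited signal values are the authors' normalised read counts, 1 per gene and library, and are fractional. Of the low non-zero values in each of the 6 libraries, 31.9% to 52.0% were whole multiples of a unit. Reads could therefore not be recovered, the read depth is unknown and no count test was used.

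Groups and replicate numbers were taken from the labels. Values were analysed as log2(value + 1) for genes with at least 10 normalised counts in at least 3 of the 18 libraries of 24 h, with 1 limma fit (limma 3.58.1, R 4.3.3) over their 6 groups, moderated with a trend and without a block. P-values are two-sided and adjusted by Benjamini-Hochberg over the 16137 genes of a comparison. All fold changes are on this scale, which understates the change of low genes, and errors are standard errors of the fit. A gene was called if its adjusted p did not exceed 0.05 and its log2 fold change was 1 or more in either direction. Labels name biological replicates and give their number as a batch, so numbers pair samples across groups. Deviations of same-numbered samples from their group means correlated by 0.0018 on average (-0.0898 to 0.1119, 45 pairs), so the pairing rests on the label alone.

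Genes were named by a rule: the 12 genes called in each direction with the largest change among those with a mean of at least 50 and groups that do not overlap, up to 5 members of each list with the smallest p, a fixed set of cell cycle and androgen genes, and the 6 most abundant called in each direction. For the other comparisons they were the 6 called in each direction with the largest change and a mean of at least 50. The comparison, lists and rule were chosen with earlier results of these data known. Gene lists were described by counts and medians. Positions, names and shared sequence come from a GRCh38 annotation, which gave a position for 29856 of the 29872 genes in the table. Its release may differ from the one the authors used. Overlaps with other genes are stated for some genes only, so a gene without such a remark need not be free of them. Alternatives were other pseudocounts, filters, scalings, a fit without trend, a replicate block, only the groups compared, and leaving out each library. The other libraries of the series were not analysed here. Some genes that the rule names are not reported here.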

Additional observations from a re-analysis of the deposited data

How the results depend on the processing

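Calls against vehicle moved by more than 1.5 times with a pseudocount of 8 (221 higher) and with only genes averaging at least 100 (101 higher, 288 lower, fewer genes tested). By the adjusted p alone they were 2579 and 2408. Under pseudocount 0.5, no filter, 3 other scalings, no trend and only the 2 groups they stayed within 1.5 times (286 to 360 higher, 469 to 572 lower), and leaving out 1 library gave 276 to 327 higher and 417 to 484 lower. With the replicate block 334 were higher and 472 lower, and 790 of the 811 genes were called in both fits. Among named genes the block ended the calls of CHST15, BDH2 and MT-CO2 (adjusted p 0.0526 for MT-CO2) and changed no other call. Of the 265 values of named genes, 27 missed the threshold under at least 1 alternative and 5 passed it newly, and none turned its sign with a call. Of the 98 counts of list members that rose or fell, 35 moved by over 1.5 times under at least 1 alternative.

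Between the doses the counts were 2 higher and 2 lower with no filter, 0 higher with a mean of at least 100, with no trend or with only the 2 groups, and 0 to 2 higher and 0 to 5 lower without 1 library. For atirmociclib against AU2-94 they were 3 higher with a pseudocount of 8, 18 higher with no filter, 0 higher and 62 lower with a mean of at least 100, 14 and 77 with quantile normalisation, 1 and 83 with only the 2 groups, and 4 to 10 higher and 116 to 167 lower without 1 library (10 higher without AU2-94 2 µM replicate 1). For ribociclib against AU2-94 they were 1 higher and 0 lower with no filter, 0 lower with a mean of at least 100, with quantile normalisation, with no trend and with the replicate block, 1 lower with only the 2 groups, and 0 to 2 in each direction without 1 library. The causes of these shifts were not tested, other than that a higher filter tests fewer genes. The median over all genes moved by less than 0.1 under every scaling.

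The values carry no read depth, so no counting interval can be given, and genes under 50 normalised counts had a median standard error of 0.44.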
